A study of Homo sapiens with 6 samples.

Results

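The mRNAs described here encode the nuclear pore complex and the factors that carry proteins and RNA through it. They were measured by native RNA immunoprecipitation and sequencing (RIP-seq) with an antibody to ORC1, the largest subunit of the origin recognition complex, which marks the sites where DNA replication starts. Genes were taken by symbol: the numbered NUP and IPO genes, the KPNA, KPNB and XPO genes, and 18 further nucleoporin, transport receptor, Ran cycle and mRNA export genes, with pseudogene symbols left out. The rule took 60 of 23013 genes. Of the 60, 59 had a mean of at least 10 normalised counts over the 6 libraries and were tested among 16513 genes that passed the same filter. The member that did not pass, IPO9-AS1, an antisense RNA taken by its symbol, had input values of 2.11, 3.15 and 9.36 and ORC1 IP values of 0, 5.23 and 0. The 0 of IPs 1 and 3 allows up to 3.45 and 2.24 normalised counts, the worth of 3 reads.

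HCT116, a human colorectal carcinoma cell line, was grown untreated and asynchronous, and nuclear lysates were sonicated before the immunoprecipitation. The 3 input libraries (no antibody) and the 3 ORC1 IP libraries carry the RIP replicate numbers 1 to 3. The comparison asks which nuclear RNAs are recovered with endogenous ORC1 beyond their level in the input. An IgG library was not analysed here, so the background of the beads was not measured in these libraries. The study reports that its control IgG pulled down no detectable RNA. The study's methods call the sequenced ORC1 RIP samples replicate experiments. The labels do not say whether the replicates came from separate cultures. Without that, p-values measure only the spread between these libraries, which may be technical.

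The nuclear pore complex is a ring-shaped channel in the nuclear envelope. Its Y complexes and inner ring form the scaffold, membrane nucleoporins anchor it, nucleoporins with phenylalanine-glycine (FG) repeats fill the channel, and filaments reach into the cytoplasm and a basket into the nucleus. Importins carry cargo inwards and exportins outwards, with the direction set by the GTPase Ran, whereas bulk mRNA leaves through the NXF1-NXT1 receptor. In dividing cells the pore is taken apart and rebuilt at each mitosis, and several transport factors, importin beta and RCC1 among them, also act on the spindle.

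Recovered reads ran from 13703033 to 17248924 in the inputs and from 25134156 to 36008733 in the IPs. Values are normalised counts, that is reads divided by 1 size factor per library. Epithelial markers (EPCAM, KRT8, KRT18, KRT19, CDH1) had at least 560 normalised counts in every library. Of the leukocyte, fibroblast and endothelial markers, COL1A1 had 161 to 787 and VWF 7.88 to 37.3, and the others were not analysed here. ORC1 IP 2 stood apart from the other IPs. The mitochondrial genome took 5.995% of its counts, against 0.617% and 0.257% in IPs 1 and 3 and 1.49% to 3.28% in the inputs. Log2 fold changes of most named members are therefore given with and without it, and the part of this share in them was not tested.

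The mRNA of TPR, which forms the basket of the pore, stood 18.7- and 10.9-fold above the mean of the inputs in ORC1 IPs 1 and 3, and that of RANBP2, its largest cytoplasmic filament protein, 3.63- and 7.58-fold. In IP 2 they stood at 1.32 and 0.832 times that mean. The mRNAs of NDC1, a membrane anchor, and NXT1, a subunit of the mRNA export receptor, lay below every input in all 3 IPs. With this spread, no nuclear pore or transport gene passed an adjusted p of 0.05 in either direction over the 6 libraries (limma). The smallest adjusted p was that of TPR, at 0.0934. Over all genes tested, 2.28% passed as higher in the ORC1 IP and 1.42% as lower. By edgeR on the recovered reads 0 members passed in either direction, against 2.57% of all genes as higher and 1.31% as lower. DESeq2 on the same reads called 2 members higher (TPR and RANBP2) and 1 lower (NXT1), against backgrounds of 6.6% and 3.57%. Those backgrounds are over the 18988 genes with a DESeq2 adjusted p, and those of limma and edgeR over 16513. At an unadjusted p under 0.05, 2 members were higher (TPR and POM121C; background 12.2%) and 5 lower (NUP43, NUP37, NDC1, NXT1 and NUP210L; background 9.45%). The thresholds of the study for RIP RNAs, applied there with DESeq2, were a log2 fold change past 1 and an unadjusted p under 0.05. On the limma fit, 1 member was higher by them (TPR) and 3 were lower (NDC1, NXT1 and NUP210L). The same rule on that fit took 10.9% of all genes as higher and 7.25% as lower. By DESeq2 RANBP2 also passed these thresholds as higher (2.00, adjusted p = 0.0189), and the full count on that fit was not made. In none of the counts given in this paragraph, all over the 6 libraries, did the members' shares exceed the background in either direction.

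The log2 fold changes of the 59 members (ORC1 IP over input, on log2 of the normalised count plus 1) ran from −1.35 for NUP210L to 2.77 for TPR. Their median was 0.04, with 33 above 0, and the median of all genes tested was 0.01. The median standard error of a member was 0.47. Per kilobase of the longest transcript, the mean input level of tested members with a transcript ran from 9.04 normalised counts for NUP210L to 3257 for KPNA2 and 3666 for RAN. Groups overlapped for 49 members. In 2, POM121C and KPNA5, every IP lay above every input (12.7% of all genes did so). In 8, SEH1L, NUP35, NUP43, SEC13, NUP37, NDC1, NXT1 and NUP210L, every IP lay below every input (13.5% of all genes). Members together held 1.11%, 1.37% and 1.10% of the counts of inputs 1 to 3, and 1.35%, 0.939% and 1.64% of IPs 1 to 3.

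**Figure D1:**
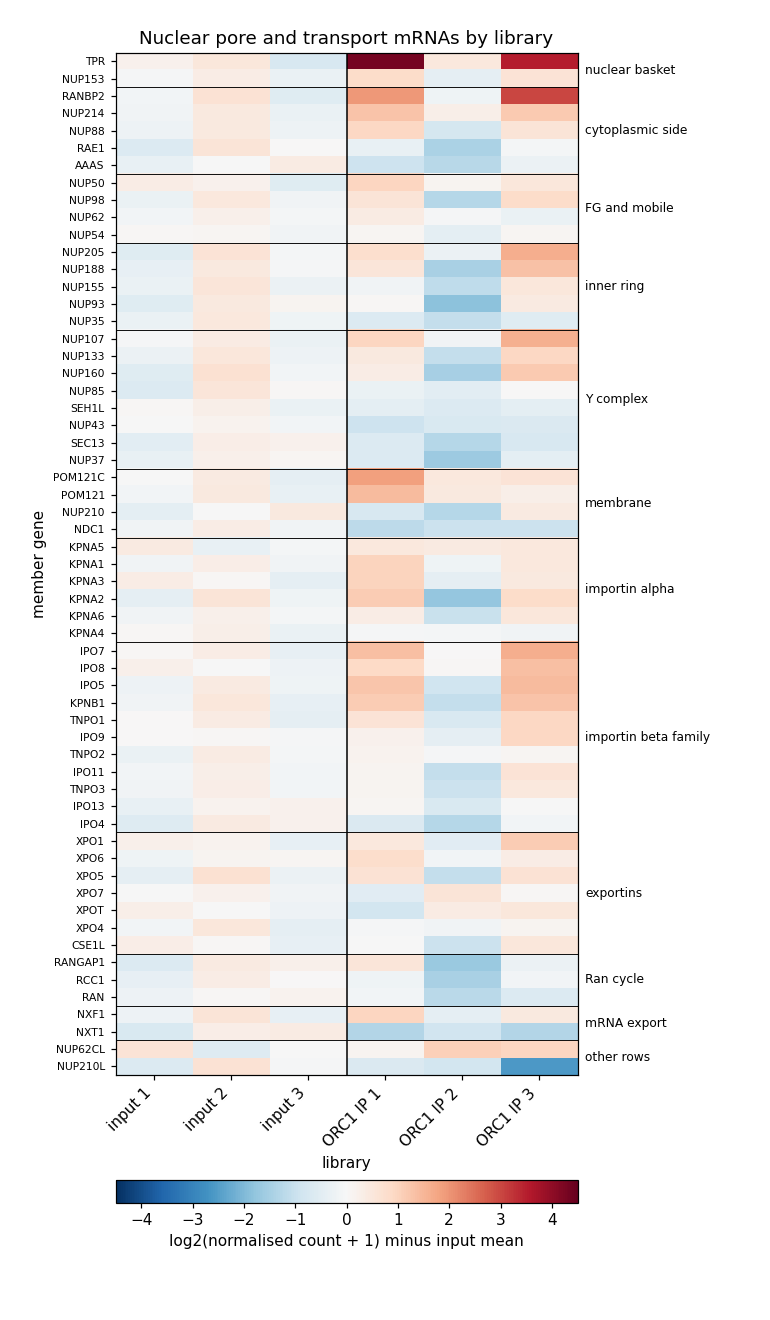
Log2 ratio of each library to the mean of the 3 inputs (colour) for the nuclear pore and transport genes that were tested (lines, grouped by role), with 1 column per library. The column of ORC1 IP 2 is mostly below the inputs and those of IPs 1 and 3 are mostly above, with TPR and RANBP2 reaching the highest ratios in IPs 1 and 3.

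The 3 IPs did not place these genes alike. Against the mean of the inputs, the median log2 ratio of the members was 0.32 in IP 1, −0.68 in IP 2 and 0.48 in IP 3, while for all genes tested it was within 0.07 of 0 in each IP. In IPs 1 to 3, 29, 6 and 32 of the 59 members lay above every input (49.1%, 10.2% and 54.2%), and 35.6%, 34.0% and 37.0% of all genes did so. Below every input lay 13, 38 and 10 members (22.03%, 64.4% and 16.9%), and 35.6%, 38.1% and 32.0% of all genes. Abundant genes in general had values nearer to those of the members. The 4592 tested genes with a mean of at least 1000 had medians of 0.30, −0.47 and 0.32, beside 0.40, −0.65 and 0.50 for the 52 members above that level. Of these abundant genes 49.3%, 20.6% and 50.3% lay above every input and 27.8%, 57.2% and 25.6% below. By RIP replicate, each IP set against the input of its own number, the log2 ratios of members in replicates 1 and 3 had a Spearman rho of 0.68 across the 59 genes, with the same sign in 79.7%. The rho was 0.01 between replicates 1 and 2 and 0.23 between 2 and 3. Over all genes the 3 values were 0.53, −0.06 and 0.38. These are correlations across genes, which are not independent replicates.

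Without ORC1 IP 2, 8 members passed as higher: TPR, RANBP2, IPO7, POM121C, NUP214, NUP107, IPO8 and IPO5. In the same fit 2 passed as lower, NDC1 and NXT1. These are 13.6% and 3.39% of the members, and 11.9% and 6.38% of all genes passed there, so the share of members was close to the background on the higher side and below it on the lower side. The median log2 fold change of the members was 0.41 without IP 2, with 41 of 59 above 0, and that of all genes 0.02. Class medians without it were −0.53 for the remaining genes that the rule took (2 genes), −0.31 for mRNA export (2) and −0.30 for the Y complex (8). They were −0.17 for the Ran cycle (3), 0.74 for the cytoplasmic side (5) and 2.31 for the nuclear basket (2). In a class of 2 the median is only the midpoint of unlike values. These were 0.55 for NUP62CL and −1.61 for NUP210L, 0.70 for NXF1 and −1.32 for NXT1, and 3.92 for TPR and 0.71 for NUP153. The inner ring changed sign, from −0.26 to 0.22, and the FG and mobile nucleoporins, membrane nucleoporins, importin alpha genes, importin beta family and exportins were at 0.40, 0.34, 0.60, 0.55 and 0.24. No other single library, left out in turn, gave a member call.

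**Figure D2:**
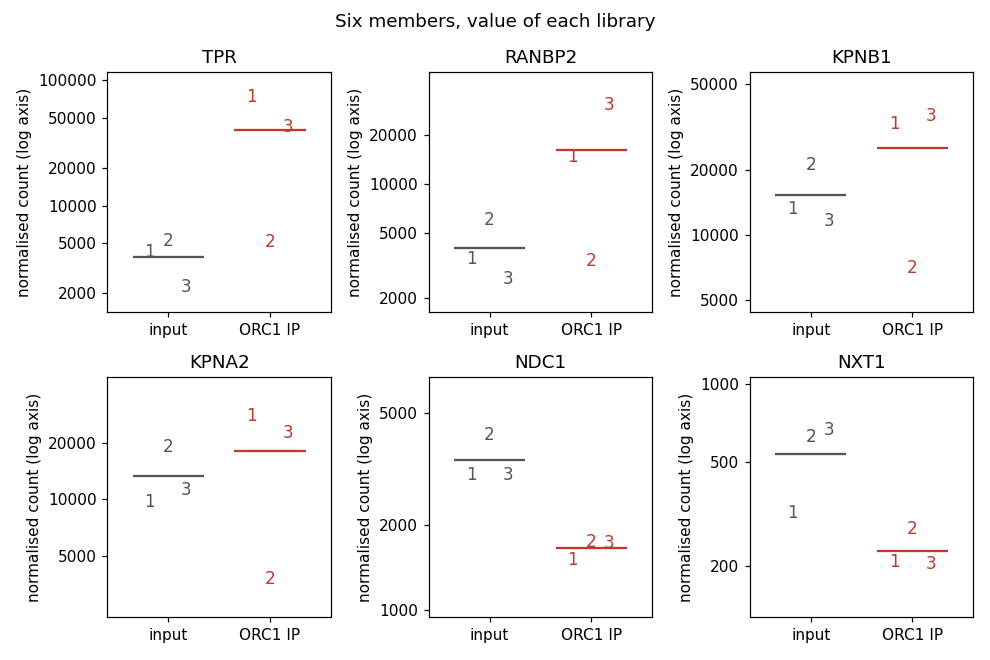
Normalised count (log axis) of TPR, RANBP2, KPNB1, KPNA2, NDC1 and NXT1 in each library. Digits mark the RIP replicate number and lines mark group means. In the first 4 genes IPs 1 and 3 lie above all inputs, with IP 2 within or below the inputs, and in NDC1 and NXT1 all IPs lie below all inputs.

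The nuclear basket carried the highest value of the set. TPR (ENSG00000047410; chr1:186311652-186375693, minus strand, GRCh38) encodes the coiled-coil protein that forms the filaments of the basket. Its inputs were 4249, 5201 and 2256 normalised counts and its IPs 72918, 5131 and 42391. IPs 1 and 3 stood 18.7- and 10.9-fold above the mean of the inputs, and IP 2 lay among the inputs, below input 2. The log2 fold change was 2.77 ± 0.87 (SE, n = 3 per group; adjusted p = 0.0934), and by replicate the log2 ratios were 4.10, −0.02 and 4.23. Without IP 2 it was 3.92 (adjusted p = 0.000286), and DESeq2 over all libraries gave 3.36 (adjusted p = 5.91e-05). Over the alternatives tried, the adjusted p of TPR ran from 5.91e-05 to 0.443. TPR alone made up 17.9% of the members' counts in IP 1 and 9.64% in IP 3, against 3.75% in IP 2 and 1.07% to 2.11% in the inputs. With TPR left out, members held 1.11%, 0.904% and 1.48% of the counts of IPs 1 to 3, beside 1.08%, 1.35% and 1.09% of the inputs. TPR overlaps PRG4 on the opposite strand. The other basket member, NUP153, an FG nucleoporin that docks TPR at the pore, had inputs of 3578, 4639.7 and 2972 and IPs of 6462, 2753 and 5589. Its groups overlapped, at 0.34 ± 0.48 (adjusted p = 0.734, and 0.71 without IP 2).

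On the cytoplasmic side, RANBP2 (chr2:108719482-108785810, plus strand), the giant filament protein that binds Ran and acts as a SUMO ligase, had inputs of 3482, 6017 and 2607 and IPs of 14657, 3357 and 30569. As with TPR, IPs 1 and 3 were above all inputs and IP 2 was among them. The log2 fold change was 1.59 ± 0.74 (adjusted p = 0.231), with 2.07, −0.84 and 3.55 by replicate. Without IP 2 it was 2.48 (adjusted p = 0.00226), by DESeq2 it was 2.00 (adjusted p = 0.0189), and over the alternatives the adjusted p ran from 0.00226 to 0.638. Of its 50-base transcript stretches, 27.0% also occur in other genes, mainly the RGPD family, so reads there cannot be told apart. NUP214, the FG nucleoporin that gathers export complexes, had inputs of 1416, 2161 and 1274 and IPs of 3805, 1882 and 3559, at 0.90 ± 0.42 (adjusted p = 0.237). Its value without IP 2 was 1.22 (adjusted p = 0.025), within an adjusted p range over the alternatives of 0.025 to 0.638. At the other end AAAS, the nucleoporin ALADIN, had inputs of 1572, 1989 and 2573 and IPs of 1063, 840.1 and 1649, at −0.82 ± 0.39 (adjusted p = 0.249, and −0.60 without IP 2). The 5 genes of this side had a median of 0.23 with 3 above 0.

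The Y complex, the outer scaffold, had a median of −0.38 over 8 genes with 3 above 0. NUP107, a core subunit of the stalk, had inputs of 1414, 1872 and 1177 and IPs of 2843, 1316 and 4443. IPs 1 and 3 were above all inputs and IP 2 among them, at 0.80 ± 0.47 (adjusted p = 0.344). Without IP 2 it was 1.28 (adjusted p = 0.0225), within an adjusted p range over the alternatives of 0.0225 to 0.72. NUP37, a small peripheral subunit of the same complex, had inputs of 1159.6, 1729 and 1561 and IPs of 960.3, 474 and 1089.6, all IPs below all inputs, at −0.89 ± 0.40 (adjusted p = 0.219, and −0.52 without IP 2). SEH1L, SEC13 and NUP43, further subunits, also had all IPs below all inputs, without passing the test. Subunits of the same scaffold therefore lay on both sides of 0.

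In the inner ring (5 genes, median −0.26), NUP205, a large scaffold subunit, had inputs of 3587, 8039 and 4875 and IPs of 8826, 4323 and 16111. Only IPs 1 and 3 were above all inputs, and the log2 fold change was 0.71 ± 0.60 (adjusted p = 0.529, and 1.20 without IP 2). NUP35, which links the inner ring to the membrane, had inputs of 562, 955 and 607 and IPs of 449, 329 and 472, all below the inputs, at −0.74 ± 0.36 (adjusted p = 0.254, and −0.58 without IP 2). Among the FG and mobile nucleoporins (4 genes, median 0.03), NUP50, a mobile factor of the nuclear side that assists importin alpha, had inputs of 2697, 2451 and 1484 and IPs of 4135, 2312 and 3059, at 0.53 ± 0.42 (adjusted p = 0.506, and 0.73 without IP 2). NUP98, an FG nucleoporin that also has roles at chromatin, had inputs of 6805, 11656 and 7625 and IPs of 12671, 3499.8 and 15019. Its IP 2 was below every input and its IPs 1 and 3 above every input, which left 0.05 ± 0.65 (adjusted p = 0.976, and 0.71 without IP 2). NUP54, of the central channel, had inputs of 1198, 1212 and 1024 and IPs of 1227, 831 and 1225, at −0.08 ± 0.34 (adjusted p = 0.919, and 0.10 without IP 2).

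Membrane nucleoporins (4 genes, median 0.09) lay on both sides of 0. NDC1 (chr1:53765478-53838463, minus strand), a transmembrane anchor, had inputs of 3027, 4202 and 3018, with a mean of 3416 ± 681 (SD, n = 3), and IPs of 1504, 1738 and 1734, with a mean of 1659 ± 134 (SD, n = 3). Each IP, IP 2 included, was below every input. The log2 fold change was −1.03 ± 0.37 (adjusted p = 0.134), and without IP 2 −1.06 (adjusted p = 0.04), within an adjusted p range over the alternatives of 0.04 to 0.461. POM121C, a transmembrane FG nucleoporin, had inputs of 699.6, 919 and 534 and IPs of 2496, 966 and 1072, so that all IPs were above all inputs. It stood at 0.97 ± 0.42 (adjusted p = 0.205), and without IP 2 at 1.22 (adjusted p = 0.0471), within an adjusted p range over the alternatives of 0.0471 to 0.611. Its near-identical paralog POM121 shares 66.1% of its 50-base stretches with other genes, so the values of both are uncertain.

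For the main import receptors the IPs lay on both sides of the inputs. KPNB1, importin beta and the main import carrier, had inputs of 13183, 21134 and 11571 and IPs of 32797, 6998 and 35582, at 0.45 ± 0.80 (adjusted p = 0.795, and 1.21 without IP 2). KPNA2, the importin alpha typical of dividing cells, had inputs of 9753, 18981 and 11292 and IPs of 27912, 3784 and 22509, at 0.06 ± 0.81 (adjusted p = 0.974, and 0.97 without IP 2). For both, IPs 1 and 3 were above every input and IP 2 below every input. The highest value among the 11 genes of the importin beta family (median 0.23) was that of IPO7, a carrier of ribosomal proteins and histones. Its inputs were 5185, 6268 and 3823 and its IPs 12648, 5097 and 15459, at 1.00 ± 0.57 (adjusted p = 0.334), and without IP 2 1.49 (adjusted p = 0.0141), within an adjusted p range over the alternatives of 0.0141 to 0.736. IPO8 and IPO5, related carriers, were at 0.78 ± 0.42 and 0.60 ± 0.76 over all libraries, and without IP 2 at 1.14 (adjusted p = 0.0296) and 1.34 (adjusted p = 0.0337), within adjusted p ranges of 0.0296 to 0.681 and 0.0337 to 0.933. The lowest was IPO4, a carrier of histones, with inputs of 71.7, 143 and 123 and IPs of 67.9, 44.1 and 99.9, at −0.68 ± 0.47 (adjusted p = 0.428, and −0.39 without IP 2). IPO4 shares 90.2% of its stretches with a readthrough transcript (ENSG00000259522), so reads of both cannot be told apart.

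Among the importin alpha genes (6 genes, median 0.20), which read the classical import signal, KPNA5 had inputs of 279, 169 and 201 and IPs of 297, 281 and 296. Every IP lay just above the highest input, at 0.46 ± 0.36 (adjusted p = 0.492, and 0.49 without IP 2). KPNA4 had inputs of 1787, 2039 and 1375 and IPs of 1633, 1601 and 1530.0, at −0.11 ± 0.35 (adjusted p = 0.894, and −0.11 without IP 2), and its groups overlapped. The 7 exportins had a median of 0.04. XPO1, the main export receptor, had inputs of 10891, 10406 and 7298 and IPs of 13187, 6516 and 20675, at 0.37 ± 0.63 (adjusted p = 0.784, and 0.81 without IP 2). CSE1L, which returns importin alpha to the cytoplasm, had inputs of 8189, 6952 and 5234 and IPs of 6591, 3409.8 and 9442, at −0.16 ± 0.53 (adjusted p = 0.895, and 0.24 without IP 2). In both, IP 2 was below every input and IP 3 above the mean of the inputs.

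All 3 genes of the Ran cycle had log2 fold changes below 0 and overlapping groups over the 6 libraries, though RANGAP1 was above 0 without IP 2. RAN, the GTPase itself, had inputs of 7771, 9418 and 10022 and IPs of 8275, 3858 and 5941, at −0.65 ± 0.52 (adjusted p = 0.506, and −0.36 without IP 2). RCC1, its chromatin-bound exchange factor, had inputs of 4259, 6826 and 5536 and IPs of 4759.9, 1975 and 4937, at −0.60 ± 0.50 (adjusted p = 0.525, and −0.17 without IP 2). RANGAP1, which makes Ran hydrolyse GTP in the cytoplasm, had inputs of 4722, 9517 and 8479.9 and IPs of 10624, 2281 and 6059.8, at −0.46 ± 0.62 (adjusted p = 0.717, and 0.15 without IP 2). The last had the highest value of all libraries in IP 1 and the lowest in IP 2.

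The partners of the mRNA export receptor lay on opposite sides of 0. NXF1, the large subunit, had inputs of 1435, 2559 and 1329 and IPs of 3299.9, 1269.7 and 2315, at 0.33 ± 0.45 (adjusted p = 0.722, and 0.70 without IP 2). NXT1 (chr20:23350791-23354771, plus strand), its small partner, had inputs of 319, 629 and 666 and IPs of 206, 278 and 202. All IPs of NXT1 were below all inputs, at −1.17 ± 0.39 (adjusted p = 0.105). Without IP 2 it was −1.32 (adjusted p = 0.0298), by DESeq2 it was −1.23 (adjusted p = 0.0489), and over the alternatives the adjusted p ran from 0.0298 to 0.45. An antisense gene, NXT1-AS1, overlaps it. Of the remaining genes that the rule took, NUP62CL had inputs of 139, 59.9 and 88.9 and IPs of 97.9, 194 and 179.6, at 0.73 ± 0.46 (adjusted p = 0.386, and 0.55 without IP 2). NUP210L, a relative of the membrane nucleoporin NUP210, had inputs of 31.7, 78.8 and 48 and IPs of 31.1, 27.3 and 7.45, at −1.35 ± 0.62 (adjusted p = 0.228, and −1.61 without IP 2), the lowest value of the set and from few reads.

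**Figure D3:**
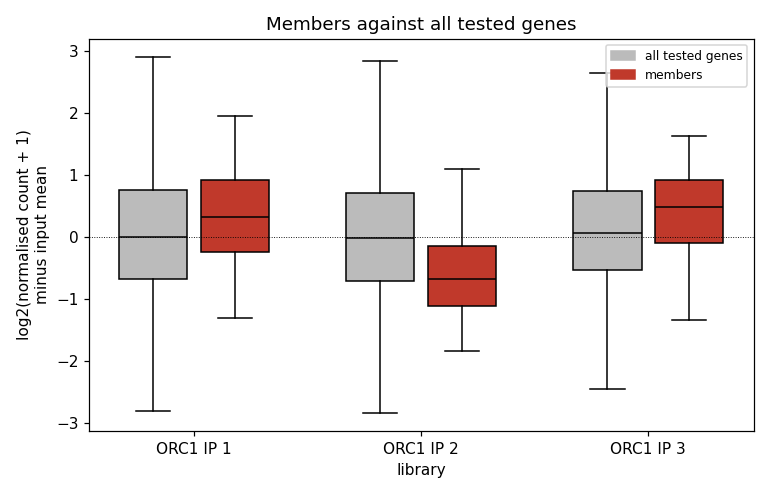
Log2 ratio of each ORC1 IP to the mean of the 3 inputs, as boxes for all tested genes and for the tested members, with outlying genes not drawn. Medians of the members were 0.32, −0.68 and 0.48 in IPs 1 to 3, and those of all tested genes were −0.007, −0.023 and 0.067.

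The study looked at the gene length, the expression and sequence motifs of the RNAs bound by ORC1. For these genes the longest GENCODE v44 transcript was taken, and its length, its GC content, the length of the gene and the mean input level were set beside the log2 fold change. The median transcript of the members was 5266 bases long with 43.5% GC, against 3283 bases and 48.1% over all genes tested. Across 58 members, Spearman's rho between transcript length and log2 fold change was 0.51, beside 0.34 across all 16062 genes with a transcript. For the length of the gene it was 0.28 (all genes 0.31), for GC content −0.23 (all genes −0.18) and for the mean input level 0.11 (all genes −0.12). The last 2 changed sign between replicates. In RIP replicates 1 to 3 the rho of members for GC content was 0.11, −0.20 and −0.31 (all genes 0.14, −0.22 and −0.33). For the mean input level it was 0.36, −0.41 and 0.34 (all genes 0.06, −0.35 and 0.04). For transcript length it was above 0 in each, at 0.36, 0.26 and 0.53. Of the 15 members under 4000 bases, 2 were above 0 and the median was −0.65, while over all genes of that class the median was −0.18. The 19 members of 4000 to under 6000 bases had a median of 0.06 (all genes 0.13), and the 24 of 6000 bases and over 0.35 (all genes 0.46). NXT1, at 1062 bases, was in the first class and TPR (9636) and RANBP2 (11708) in the last. After a correction for length and GC over all genes, which was chosen after seeing the data, TPR was at 2.14 (adjusted p = 0.168), RANBP2 at 0.88 and NXT1 at −0.79.

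**Figure D4:**
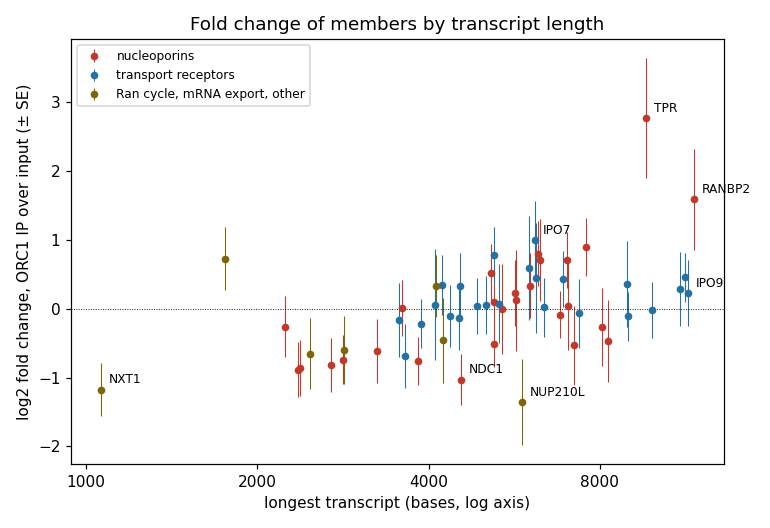
Log2 fold change (ORC1 IP over input) against the length in bases of the longest transcript (log axis) for the 58 tested members with a transcript. Members under 4000 bases lie mostly below 0, and TPR and RANBP2 lie among the longest transcripts.

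GAA repeats were searched as the letters GAAGAAGAA on the sense strand of the same transcripts. They occurred in 9 of 58 members (15.5%) and in 2067 of 16062 genes (12.9%). A coding match of each of 5 members is shown with 8 bases on each side, in GRCh38, so that the repeat can be set beside the values above; capitals mark the repeat, and the RNA holds U for T. They lie at chr2:108764102-108764126 (RANBP2, plus strand), chr5:62484112-62484136 (IPO11, plus), chr3:122467383-122467407 (KPNA1, minus) and chr17:5405061-5405085 (NUP88, minus), and that of NUP37 spans an exon junction on chr12.
RANBP2: aggaagatGAAGAAGAAttcttttg
IPO11: tattaactGAAGAAGAActgacaat
KPNA1: ctacagcaGAAGAAGAAacagaaga
NUP88: tagaagggGAAGAAGAAgatgacca
NUP37: cgtttcagGAAGAAGAAgcagacgt

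In each of these the repeat starts on the first codon position, so that it encodes a run of glutamates. Their log2 fold changes were 1.59 for RANBP2, −0.11 for IPO11, 0.43 for KPNA1, 0.23 for NUP88 and −0.89 for NUP37. With the correction for length and GC, KPNA1 and NUP88 were at −0.03 and −0.14, and IPO11 was at 0.37 without IP 2. KPNA1 holds a second coding match just after the one shown, KPNA5 also holds a coding match, and KPNA4, NXF1 and SEH1L hold one in an untranslated part. TPR, the member with the highest value, holds none. Members with the repeat had a median of 0.23 and those without 0.02, while over all genes the medians were 0.58 and −0.06. By length class, from the shortest, 6.67%, 21.1% and 16.7% of members held it, against 8.10%, 15.8% and 25.4% of all genes. A match says only that these letters are in the transcript, not that ORC1 binds there.

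Of 49 further symbols of the same pathway, 39 had a tested gene, 23 of them above 0 with a median of 0.16. Among them 2 were higher in the ORC1 IP and 0 lower at an adjusted p of 0.05 (limma), which is 5.13% and 0% of them beside 2.28% and 1.42% of all genes. At an unadjusted p under 0.05 there were 7 higher and 3 lower (17.9% and 7.69%, beside 12.2% and 9.45%). THOC1, a subunit of the THO complex that couples transcription to mRNA export, had inputs of 326, 216 and 152 and IPs of 1288, 536 and 853. All its IPs were above all its inputs, at 1.92 ± 0.42 (adjusted p = 0.0308). ZC3H11A, a zinc finger protein of the same export pathway, had inputs of 2125, 1629.6 and 1379.6 and IPs of 5592, 3860.3 and 9159, at 1.79 ± 0.45 (adjusted p = 0.0479). The adjusted p ran from 0.00184 to 0.23 over the alternatives for THOC1 and from 0.00138 to 0.318 for ZC3H11A. Both calls were lost with total counts (0.0828 and 0.0698), without the trend (0.0707 and 0.0703), with the length and GC correction (0.0629 and 0.105) and without input 2 (0.114 and 0.207), input 3 (0.23 and 0.318), IP 1 (0.0762 and 0.0785) or IP 3 (0.0952 and 0.133), and that of ZC3H11A also without input 1 (0.0725) and with a replicate block (0.0743). In both genes IP 2 was the lowest of the IPs and still above every input.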

How the data were processed

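RNA from nuclei of HCT116 cells was measured in 3 input and 3 ORC1 IP libraries, grouped by the GEO labels. Per the study's methods and the submitters' processing notes, reads were trimmed with Trimmomatic, aligned with STAR to hg19, cleared of those on GL contigs and counted per Ensembl gene with featureCounts. The strand setting and the handling of multi-mapping reads are not given in the sources used here. The deposited values are signal of gene counts that the authors divided by 1 DESeq2 size factor per library, and replicates were not pooled. Every value was a whole multiple of the worth of 1 read within 0.001 (100% of values), which recovered the reads. The deposited table also holds the authors' fold changes, test statistics and p-values for the comparison, which were not used. Totals of 13703033 to 36008733 reads set the counting precision. Floors cover counting error only, since reads are not independent molecules.

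The main fit was limma v3.58.1 (R v4.3.3) with a mean-variance trend on log2(normalised count + 1) over 16513 genes with a mean of at least 10, 3 ORC1 IPs against 3 inputs, without a block. P-values were adjusted by Benjamini-Hochberg over all of them. A fold change on this scale understates the change of low genes. Alternatives were pseudocounts of 0.5 and 5, no filter or a mean of at least 50, total counts or TMM, edgeR v4.0.16 and DESeq2 v1.42.0 on recovered reads, no trend, each library left out, and a replicate block. A correction for transcript length and GC was added after seeing the data. The fit was tested on simulated data.

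The labels give an input and an IP to each RIP replicate number. Their deviations from the group means had correlations of −0.32, −0.24 and 0.22 for numbers 1, 2 and 3, and input 2 went best with IP 1 (0.50).

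Genes named are, in each role class, the members with the highest and lowest log2 fold change, 12 well-known members, and those of the further pathway list that were called (THOC1 and ZC3H11A). SEH1L, SEC13, NUP43, IPO8, IPO5, IPO11, KPNA1, NUP88 and POM121 were named after their values were seen. Members, roles and lists were chosen with earlier results of these data known. Coordinates, lengths and sequences come from GENCODE v44 on GRCh38, another build than the files', and were matched by Ensembl gene ID (16062 of 16513 tested genes, 58 of 59 tested members). POM121C was not matched. Genes with shared stretches were found by exact 50-base matches.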

Additional observations from a re-analysis of the deposited data

How the results depend on the processing

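The count of members called, 0 higher and 0 lower, moved under DESeq2 (2 and 1) and when single libraries were left out (0 to 8 and 0 to 2), where the calls came only without ORC1 IP 2. Counts over all genes, 376 higher and 234 lower, moved to 87 and 96 with total counts, 1254 and 677 with DESeq2, 143 and 96 without the trend, 134 and 76 with the length and GC correction, and 6 to 1965 and 23 to 1053 with single libraries left out. With a replicate block, 433 and 191 of all genes and 0 and 0 members were called, so the pairing changed no call of a member, and of the named genes outside the set it ended that of ZC3H11A. Total counts moved the median of all genes to −0.19, and took the share of calls that were higher from 61.6% to 47.5%. Signs changed there for 10 of the 59 members, among those named with values KPNA2 (−0.15) and NUP98 (−0.17). The correction changed the sign of 16 members, among those named with values KPNA1 (−0.030), KPNA2 (−0.21), KPNA5 (−0.19), NUP153 (−0.028), NUP88 (−0.14), NUP98 (−0.36) and XPO1 (−0.21). IPO11 was at 0.023 by edgeR and 0.036 by DESeq2. With single libraries left out, log2 fold changes ran from −0.49 to 0.24 for CSE1L, −0.48 to 0.37 for IPO11, −0.47 to 0.97 for KPNA2, −0.27 to 0.018 for KPNA4, −0.18 to 0.10 for NUP54, −0.12 to 0.74 for NUP88, −0.34 to 0.71 for NUP98, −0.96 to 0.15 for RANGAP1 and −0.018 to 0.81 for XPO1. The cause of these changes was not tested. For the named genes, 622 of the recomputed values kept their direction and side of the threshold, 13 passed it in the same direction, 16 no longer passed it (THOC1 and ZC3H11A) and 27 changed sign. With 3 libraries per group and a median standard error of 0.47, a member that missed the threshold is not shown to be equal in input and IP.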
